A study of Homo sapiens with 45 samples.

Results

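The mitosis and spindle genes described here are 50 rows, chosen by name, of the 23045 rows in the deposited expression tables of 45 single H1 cells. They encode kinases and cyclins of mitotic entry (9 genes), the spindle checkpoint (5), the anaphase-promoting complex pathway (3), the centromere and kinetochore (6), the chromosomal passenger complex (3), spindle motors and microtubule proteins (13), chromosome structure (4), and the central spindle and cytokinesis (7). The rule used no measured value, though the members were chosen with earlier results of these data known. All 50 rows were found. H1 is an established human embryonic stem cell line, and all cells carried the label of passage 40. Live cells (phenotype DAPI-) and fixed cells (DAPI+) were each prepared by FRISCR, a procedure that recovers RNA from fixed single cells, or by lysis in the detergent Triton X-100, and the stated purpose was a proof of principle for FRISCR. There were 15 live FRISCR, 12 fixed FRISCR, 11 live Triton and 7 fixed Triton cells. In the titles FRISCR cells carry the code PLRC and Triton cells RLT, and the labels' extraction protocol speaks of cortical tissue although every sample is labelled H1.

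Cell division turns on a set of genes whose transcripts build up late in the cell cycle. CDK1 bound to B-type cyclins drives entry into mitosis, the checkpoint proteins hold anaphase until each chromosome is attached to the spindle, and the anaphase-promoting complex then has cyclin B and securin destroyed so that the sister chromatids separate. Aurora kinases, kinesins and the proteins of the central spindle move the chromosomes and divide the cell. Many promoters of these genes hold a CCAAT box, read by the factor NF-Y, together with a cell cycle homology region (CHR), through which the DREAM and MuvB complexes repress them in resting cells and switch them on before mitosis. Embryonic stem cells divide quickly and a culture holds cells of every phase.

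The 4 groups had total counts from 3388417 to 6594043 per cell. Since no label tells separate cultures apart, a group counts as 1 sample and not as replicate cells, and no p-value was computed. A code in the titles splits each group into 2 library sets, and values are given within them where they bear on a result. The labelled cell type was checked against its markers: 12 of 12 pluripotency genes reached 20 counts in 1000000 (CPM) in live FRISCR, fixed FRISCR and live Triton cells and 11 of 12 in fixed Triton cells, with POU5F1 at 1026, 1114, 905.1 and 315.3 CPM, and their sum at 6470, 6243, 5559 and 2083 CPM. Markers of other cell types were partly present. Of 8 fibroblast markers 3 reached 20 CPM in live FRISCR cells, THY1 at 505.8, COL1A2 at 121.9 and COL1A1 at 81.8 CPM, while COL3A1, DCN, LUM and POSTN had no count in any group. Of 8 neural progenitor markers PTPRZ1 (386.5 CPM), FABP7 (35.2 CPM) and NES (24.1 CPM) did so, while SOX1, HES5 and NEUROG2 had no count in any group. The summed levels in live FRISCR, fixed FRISCR, live Triton and fixed Triton cells were 713.9, 568.1, 670.2 and 251.9 CPM for the fibroblast list and 446.1, 342.8, 439.5 and 159.9 CPM for the neural list. The mesoderm, endoderm, trophoblast and blood lists summed to at most 33.7 CPM in any group. The part of these cell types in the results was not tested. Fixed Triton cells stood apart from the rest. At a common depth of 3000000 counts they had a median of 5937 genes with a count, against 9683 to 10412 in the other groups, and 49 abundant rows (44 named for rRNA and 5 others) took a median of 42.5% of their counts, against 5.20% to 11.5%.

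The promoters of these genes share letters that the choice of members did not use. The RefSeq promoter table (GRCh38.p14, from 250 bases before to 50 after a start) held 42 of the 50 members. The CHR letters TTTGAA or TTTAAA, on either strand, stood in the window of 37 of these 42 genes (88.1%), against 27.9% of all 27305 genes of the table. CCAAT stood in 33 of 42 (78.6%) against 39.7%, and CHR letters together with CCAAT in 30 of 42 (71.4%) against 11.2%. Matches may overlap, as do a CCAAT on each strand in PTTG1, which began 51 and 48 bases before the start and count as 2, and TTTAAA reads the same on both strands. The stretches below are the 150 bases before the start of 5 members with both motifs and 2 members without either in these bases. Capitals mark TTTGAA or TTTAAA and CCAAT on either strand (TTCAAA and ATTGG are TTTGAA and CCAAT on the other strand), and a match is a run of letters, not a shown binding site.
PLK1, chr16:23678739-23678888, + strand: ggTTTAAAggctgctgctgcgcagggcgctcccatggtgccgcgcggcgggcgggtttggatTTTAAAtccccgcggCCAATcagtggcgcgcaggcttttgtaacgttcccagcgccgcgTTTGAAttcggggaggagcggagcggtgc
CCNB2, chr15:59104996-59105145, + strand: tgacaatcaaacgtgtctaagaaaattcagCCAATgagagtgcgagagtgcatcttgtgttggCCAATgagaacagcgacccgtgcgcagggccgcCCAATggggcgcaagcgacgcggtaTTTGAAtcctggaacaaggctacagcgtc
CDC20, chr1:43358831-43358980, + strand: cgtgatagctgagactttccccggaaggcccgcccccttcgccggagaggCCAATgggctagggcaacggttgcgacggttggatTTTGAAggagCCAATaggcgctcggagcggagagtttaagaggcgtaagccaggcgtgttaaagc
PTTG1, chr5:160421705-160421854, + strand: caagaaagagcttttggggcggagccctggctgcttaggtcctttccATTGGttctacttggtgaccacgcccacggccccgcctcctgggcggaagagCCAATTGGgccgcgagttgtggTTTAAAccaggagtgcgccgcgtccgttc
CKS2, chr9:89311045-89311194, + strand: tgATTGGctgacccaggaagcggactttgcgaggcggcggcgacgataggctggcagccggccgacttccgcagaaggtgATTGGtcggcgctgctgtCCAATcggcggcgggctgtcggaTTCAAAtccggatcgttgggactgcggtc
AURKB, chr17:8210226-8210375, - strand: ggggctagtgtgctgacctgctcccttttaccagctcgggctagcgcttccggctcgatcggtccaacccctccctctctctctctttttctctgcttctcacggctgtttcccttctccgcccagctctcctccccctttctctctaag
TACC3, chr4:1720481-1720630, + strand: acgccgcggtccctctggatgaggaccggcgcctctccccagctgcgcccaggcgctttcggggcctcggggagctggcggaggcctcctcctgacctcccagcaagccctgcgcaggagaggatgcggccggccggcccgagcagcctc

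In PLK1, CCNB2, PTTG1 and CKS2 the CHR letters nearest the gene began 29 bases before the start, and in CDC20 they began 65 bases before it. CHR letters that began within 50 bases before the start were found in 23 of 42 members (54.8%) and in 6.05% of all genes. CCNB2 carried 3 CCAAT boxes in the stretch shown, which began 120, 87 and 54 bases before the start, and 4 in its whole window. Over whole windows 24 of 42 members (57.1%) held at least 2, against 12.9% of all genes. The PTTG1 and AURKB stretches are the first of 2 windows that the table gives for each gene. AURKB, a kinase of the chromosomal passenger complex, held CCAAT elsewhere in its windows, while TACC3 and CKAP2, both spindle proteins, held neither motif. By role, CHR letters stood in all 6 matched centromere genes and all 6 matched cytokinesis genes, in 7 of 8 entry genes and in 10 of 12 spindle motor and microtubule genes. Among 84 matched genes of a wider list of other mitosis genes, 49 (58.3%) held CHR letters, and among 52 matched DNA replication genes 10 (19.2%) did, while CCAAT stood in 54 (64.3%) and 33 (63.5%) of them. AURKA, BIRC5, BUB3, CDCA2, RACGAP1, TPX2, TTK and UBE2C were not matched.

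The 50 genes together took a median of 0.663% of the counts of a live FRISCR cell (lowest 0.350%, highest 1.84%, SD 0.395, n = 15 cells). In fixed FRISCR cells the median was 0.696% (0.469% to 1.46%, SD 0.291, n = 12), and in live Triton cells it was 0.887% (0.348% to 1.32%, SD 0.293, n = 11). These 3 groups overlapped over most of their ranges. Fixed Triton cells had a median of 0.224% (0.150% to 0.299%, SD 0.0582, n = 7), and the highest of them lay below the lowest cell of every other group. The library sets gave medians of 0.218% and 0.224% in fixed Triton cells and between 0.464% and 0.976% in the other groups. Once the 49 abundant rows were taken out of the totals, the fixed Triton median was 0.371% and its highest cell, at 0.580%, lay within the range of the live Triton cells, which then ran from 0.393% to 1.43%. Their part in the lower share was otherwise not tested.

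**Figure D1:**
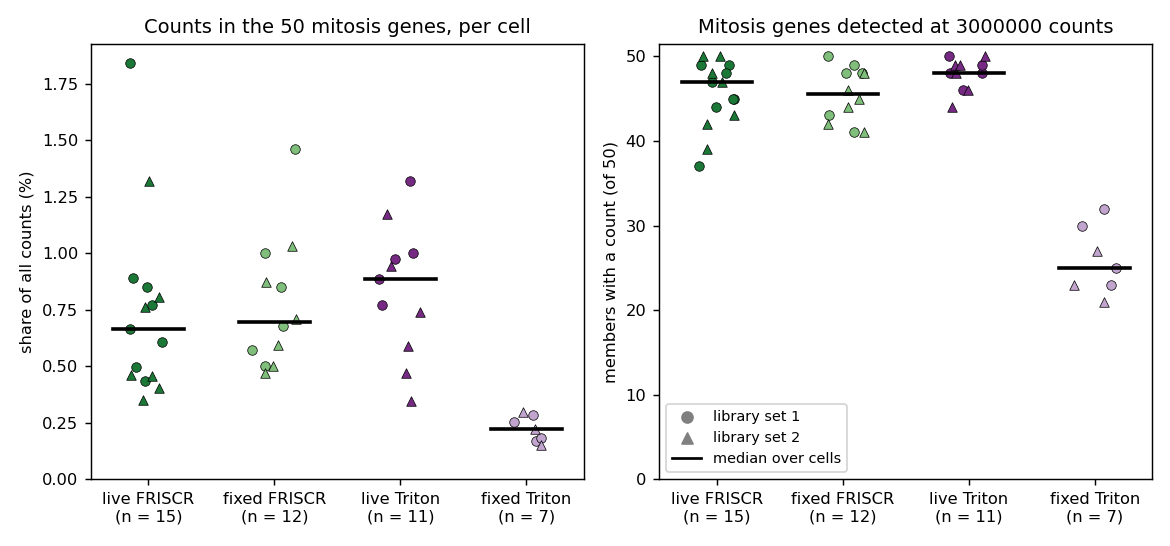
Each point is 1 cell; the left panel gives the share of all counts in the 50 mitosis genes (%), the right panel the number of these genes with a count after thinning to 3000000 counts, by group, with library sets as circles and triangles and medians as bars. The 7 fixed Triton cells sit between 0.150% and 0.299% and hold 21 to 32 of the genes, below the cells of the other 3 groups in both panels.

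After thinning, the median cell held a count for 47 of the 50 genes in live FRISCR (37 to 50), 45.5 in fixed FRISCR (41 to 50), 48 in live Triton (44 to 50) and 25 in fixed Triton cells (21 to 32). Without thinning the medians were 47, 45.5, 49 and 28. CENPA, the histone H3 variant that marks centromeres, was the member missing most often: its summed level was 1.09, 7.23, 0.50 and 0 CPM in live FRISCR, fixed FRISCR, live Triton and fixed Triton cells. It was the 1 member that stayed under 20 CPM in both groups of each contrast and so entered none of the folds below. NEK2 was under that level in both fixed groups, which left 48 members for the comparison of fixed cells. Levels between genes were compared per length, by the mean of the deposited TPM values, which are scaled to transcript length. CKS2, a small subunit of the CDK1 complex, ranked first of the 50 in all 4 groups, at 937.1 TPM (SD 417.5, n = 15) in live FRISCR and 1084 TPM (SD 451, n = 11) in live Triton cells. UBE2C, the ubiquitin-conjugating enzyme of the anaphase-promoting complex, followed with 508.8 TPM (SD 339.7) and 736.6 TPM (SD 503.5). PTTG1 (securin), at 502.9 TPM in live FRISCR cells, and BUB3, a checkpoint protein, at 436.8 TPM, came next, and their SDs over cells (333.3 and 288.8) were larger than the gaps between UBE2C, PTTG1 and BUB3. At the other end stood GTSE1 (11.8 TPM), the spindle pole protein ASPM (9.86 TPM) and CENPA (1.39 TPM).

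**Figure D2:**
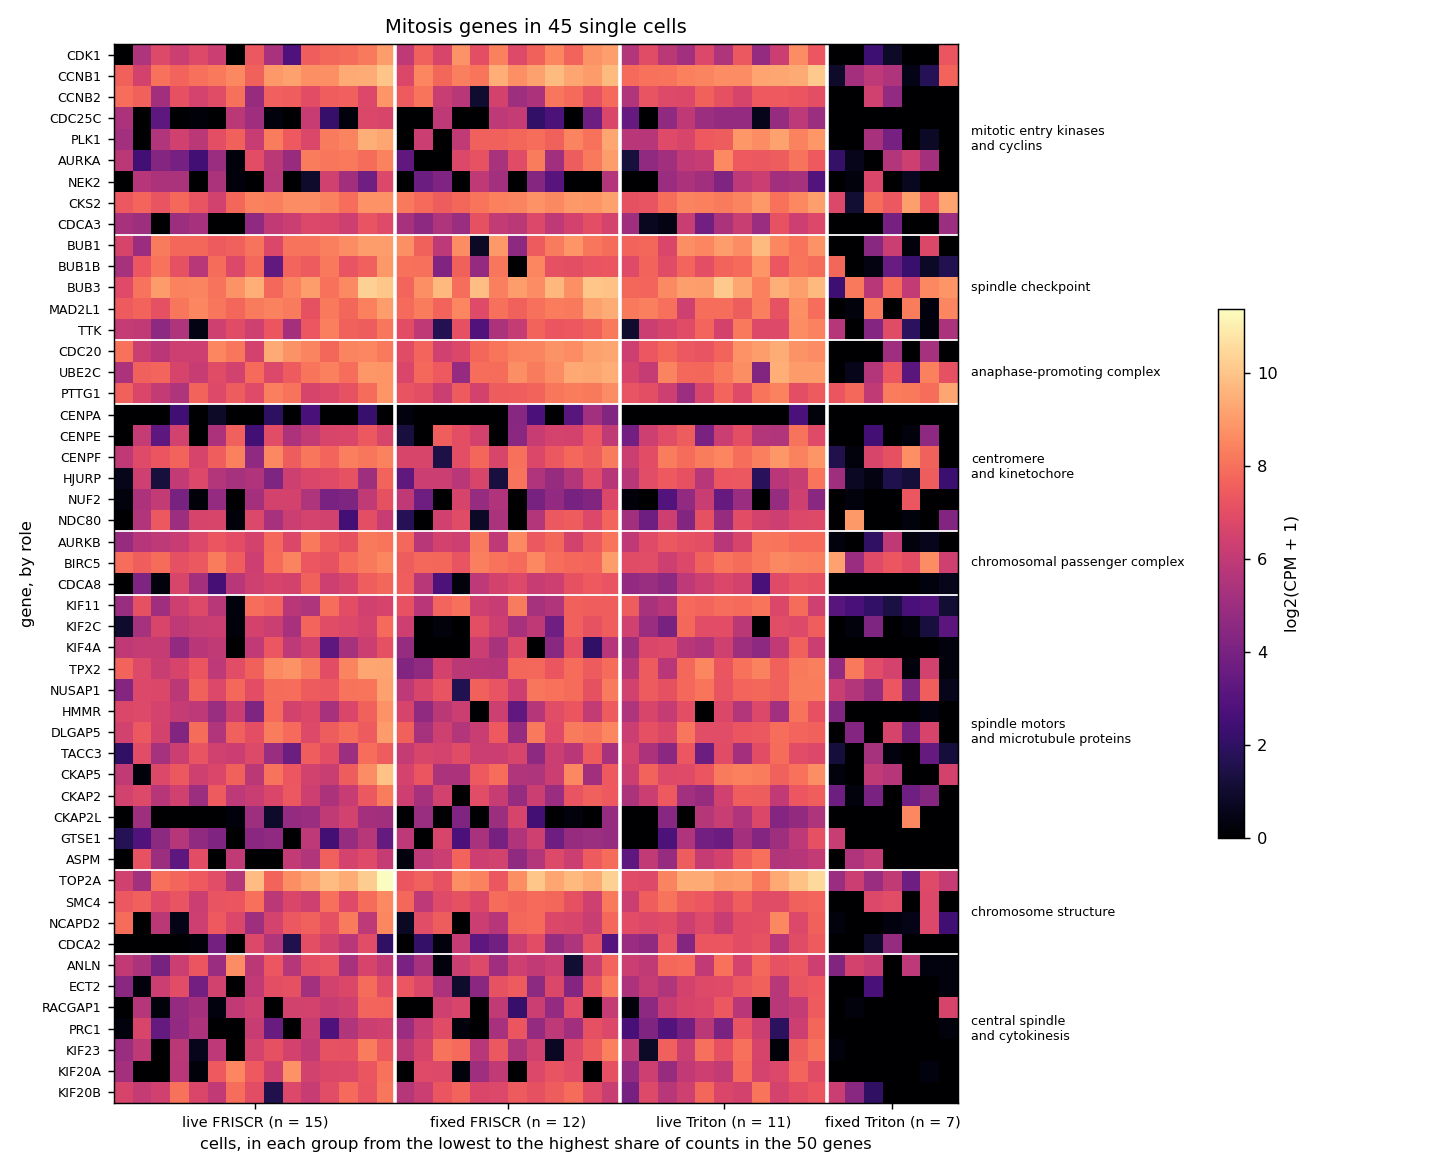
Rows are the 50 mitosis genes by role, columns the 45 cells, in each group from the lowest to the highest share of counts in these genes, and colour is log2(CPM + 1). In the 7 fixed Triton cells most rows are black in several cells, with the cytokinesis genes darkest, while TOP2A, BIRC5 and PTTG1 keep at least 10 CPM in each of the 7.

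Among cells prepared by FRISCR, fixed cells held the mitosis genes at much the same level as live cells. The median log2 fold of summed CPM, fixed over live, was -0.01 over the 49 members with at least 20 CPM in either group (-0.05 and 0.05 in the library sets), beside -0.02 over all 7518 such genes. Of the 49, 1 was lower by more than 2-fold and 0 were higher by as much, against 7.69% and 3.34% of all genes, and no member's groups of cells separated (0.0% of all genes). The member past 2-fold was TPX2, which targets Aurora A to the spindle. Its cells ran from 58.0 over a median of 198.5 to 614.6 CPM in live and from 18.0 over 122.3 to 241.2 CPM in fixed cells, so most values overlapped. Its log2 fold was -1.02 (2.03-fold lower, exact 95% interval 1.98 to 2.09, counting error only), with -0.81 and -1.26 in the library sets, and leaving out single cells gave -1.14 to -0.86.

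By role, the 13 spindle motor and microtubule genes had a median log2 fold of -0.28, and 10 of them were lower than the all-gene median, 9 of these in each of the library sets. How many of all genes lay on the same side of their median in both sets was not counted. HMMR, a microtubule-binding protein, was at -0.73 (-0.32 and -1.28 in the sets), KIF4A, a chromosome-bound kinesin, at -0.73 (-0.63 and -0.83) and CKAP5, a microtubule polymerase, at -0.71 (-0.72 and -0.65). Without live FRISCR replicate 1, HMMR was at -0.41 and CKAP5 at -0.20. KIF4A was at -1.10 without fixed FRISCR replicate 7. KIF11, the kinesin that pushes the spindle poles apart, had the opposite sign at 0.50 (0.55 and 0.45). The other roles lay between -0.05 and 0.25. The 3 genes of the anaphase-promoting complex pathway all exceeded the all-gene median in each set, UBE2C at 0.67, CDC20 at 0.23 and PTTG1 at 0.17.

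CDK1 had the highest log2 fold of the 49, 0.86 (ratio 1.81, interval 1.77 to 1.86; 0.79 and 0.99 in the sets). Its cells ran from 0 over 113.7 to 530.3 CPM in live and from 59.9 over 201.5 to 544.5 CPM in fixed FRISCR cells. GTSE1 (0.83) and PRC1 (0.81), a bundler of the central spindle, followed. GTSE1 gave 1.88 in the first library set and -0.03 in the second, and PRC1 gave 0.93 and 0.71. NEK2, a centrosome kinase, and KIF20A, a cytokinesis kinesin, were at -0.98 each, with sets of -0.96 and -0.96 for NEK2 and -1.26 and -0.13 for KIF20A. The most abundant members of the 8 roles ran from TPX2 (-1.02, above) to BUB3 (0.27): TOP2A, which untangles chromosomes, had 570.7 CPM in live and 514.4 CPM in fixed cells (-0.15), CCNB1 (cyclin B1) 411.5 and 485.4 CPM (0.24), BUB3 483.3 and 584.1 CPM (0.27), CDC20 262.8 and 308.8 CPM (0.23), CENPF, a kinetochore protein, 211.9 and 153.4 CPM (-0.47), and BIRC5 (survivin) 222.2 and 263.8 CPM (0.25). ANLN (anillin), which organises the cleavage furrow, had 104.8 and 62.8 CPM and the fourth lowest of the 49 folds (-0.74). One cell moved CKAP2L, from -0.25 to -1.17 without fixed FRISCR replicate 7.

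With Triton lysis, fixed cells held far less of most mitosis genes than live cells. The median log2 fold over the 49 members was -2.92 (-3.64 and -3.25 in the library sets), beside -1.50 over all 7256 genes (-2.11 and -2.30). Of the 49, 42 were more than 2-fold lower (58.5% of all genes) and 0 more than 2-fold higher (12.4%), and 38 were lower in both library sets (46.8%). In 10 members every fixed cell lay below every live cell (10.3% of all genes). That count and the 1 member without any count in fixed cells (CDC25C, 5.39% of all genes) are counts of few genes. Of the 49, 37 were lower than the all-gene median, 23 of them in each set. The share of all genes below their median in both sets was not taken. Scaling moved these values. The median of all genes was -0.48 with TMM and -0.30 with median-of-ratios factors, and that of the members -1.90 and -1.72. With TMM 33 members were more than 2-fold lower (42.1% of all genes) and 4 higher (26.3%). With median-of-ratios factors 32 were lower (39.6%) and 5 higher (28.8%). Such a factor shifts every fold of a contrast by the same amount, so the count of 37 below the all-gene median could not change.

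Central spindle and cytokinesis genes had the lowest median of the roles, -7.33, and all 7 were more than 2-fold lower (58.5% of all genes). Their folds were spread widely. RACGAP1 was at -2.31, and at -10.83 without fixed Triton replicate 7, and KIF20B was at -2.92, and at -4.79 without replicate 6. KIF23, the kinesin of the centralspindlin complex, had 132 CPM in live Triton cells (0.152 over 137.3 to 257 CPM) and 1 count in the 7 fixed cells, a ratio of 3846-fold lower with a counting interval of 690.1 to 151934. KIF20A (98.1 CPM in live cells) and PRC1 (53.0 CPM) also had 1 count each, with intervals of 512.7 to 112890 and 277.3 to 61084. ECT2, the exchange factor that activates RhoA at the furrow, had 105.2 CPM in live and 0.652 CPM (19 counts) in fixed cells, a log2 fold of -7.33. The kinesin KIF4A had 1 count in fixed and 74.3 CPM in live cells (interval 388.2 to 85494), and CDCA8 (borealin), a scaffold of the passenger complex, had 3 counts and 75.4 CPM (interval 250.4 to 3552). ANLN was less low at -2.13 (4.38-fold, interval 4.10 to 4.68), with -1.49 and -4.42 in the sets; its 7 fixed cells held 90.2, 59.0, 71.4, 0.250, 0, 18.5 and 0.228 CPM. The 3 cells above 50 CPM all belonged to the first library set.

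Genes of mitotic entry had a median of -3.11, and 8 of 9 were more than 2-fold lower (58.5% of all genes). CCNB1 gave 37.0, 0.420, 58.1, 2.25, 46.1, 0.873 and 202.8 CPM in the 7 fixed Triton cells, in order of replicate, against 229.5 over 397.5 to 1125 CPM in live cells. The groups did not overlap, and it was 9.58-fold lower (interval 9.08 to 10.1), a log2 fold of -3.26. PLK1, the Polo kinase, had a count in 3 of 7 fixed cells, the highest at 39.0 CPM, below the lowest live cell at 52.1 CPM (log2 fold -5.38). CDC25C, the phosphatase that activates CDK1, had 27.6 CPM in live cells and no count in fixed cells, so it was at least 268-fold lower against a floor of 3 counts over the group. CKS2 was the exception in its role: it had a count in all 7 fixed cells, from 1.16 over 171.7 to 599.9 CPM, and its log2 fold was -0.24.

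CDC20, the activator of the anaphase-promoting complex, had 37.8 and 33.3 CPM in fixed Triton replicates 4 and 5 and 0 in the other 5, against at least 80.3 CPM in every live Triton cell. It was 33.6-fold lower (interval 29.8 to 38.0). PTTG1, the securin that CDC20 marks for destruction, had the opposite sign. It held 225.1, 298.7, 63.2, 243.5, 315, 154 and 621.8 CPM in the 7 fixed cells, against 30.7 over 133.6 to 340.8 CPM in live cells, and its log2 fold was 0.81 (ratio 1.75, interval 1.70 to 1.81), with -0.06 in the first set and 1.78 in the second. PTTG1 has near-identical copies in the genome, so the split of its reads is uncertain. BIRC5 had 218.5 CPM in fixed against 225 CPM in live cells by total counts, a log2 fold of -0.04, but -0.85 and 0.81 in the sets. Its partners in the passenger complex, AURKB (-4.32) and CDCA8, were far lower. The TMM and median-of-ratios factors named above each raise every fold of this contrast by a fixed amount, those of PTTG1, BIRC5 and CKS2 included. BUB3, with 293.6, 65.9, 53.1, 374.9, 236.4, 4.15 and 465.1 CPM in fixed cells, was 2.64-fold lower (interval 2.57 to 2.72), less low than the other checkpoint genes BUB1 (-3.78), BUB1B (-2.50) and TTK (-2.33) and lower than MAD2L1 (-0.82).

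TOP2A had a count in all 7 fixed Triton cells, at 78.4, 12.2, 30.4, 118.1, 61.4, 29.7 and 68.2 CPM. Its live cells ran from 114.5 over 513.5 to 1496 CPM, so the highest fixed cell just overlapped the lowest live cell, and it was 10.2-fold lower (interval 9.68 to 10.7). KIF11 was also even across cells: its 7 fixed cells lay between 1.14 and 7.64 CPM, all below the live cells (40.4 to 274.7 CPM). Other members rested on 1 cell. The kinetochore genes NUF2 and NDC80, both at a log2 fold of 0.07, had 99.9% of their fixed counts in replicate 2 and 96.3% in replicate 1, and without these cells the folds were -9.26 and -4.47. CKAP2L, at 0.91 the highest of the 49, had all 1792 counts in replicate 2 and was at -8.06 without it. CENPF (-1.26, sets -1.06 and -2.41) and TPX2 (-1.33, sets -1.11 and -2.25) were at -2.15 without replicate 2 and -2.13 without replicate 1. For CCNB1 and CDC20 the values were -4.42 without replicate 7 and -6.01 without replicate 4. In all, leaving out the cell that moved a fold most, each time a fixed Triton cell, changed 37 of the 49 folds by more than 1.5 times. Of these 33 went further down, as a fold does when the fixed cell left out is high. The same count was not taken over all genes, so it does not set the members apart. The 4 that moved up were KIF4A, PRC1, KIF23 and KIF20A, whose lone count was then gone and replaced by the floor, giving -9.26, -8.77, -10.08 and -9.68.

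**Figure D3:**
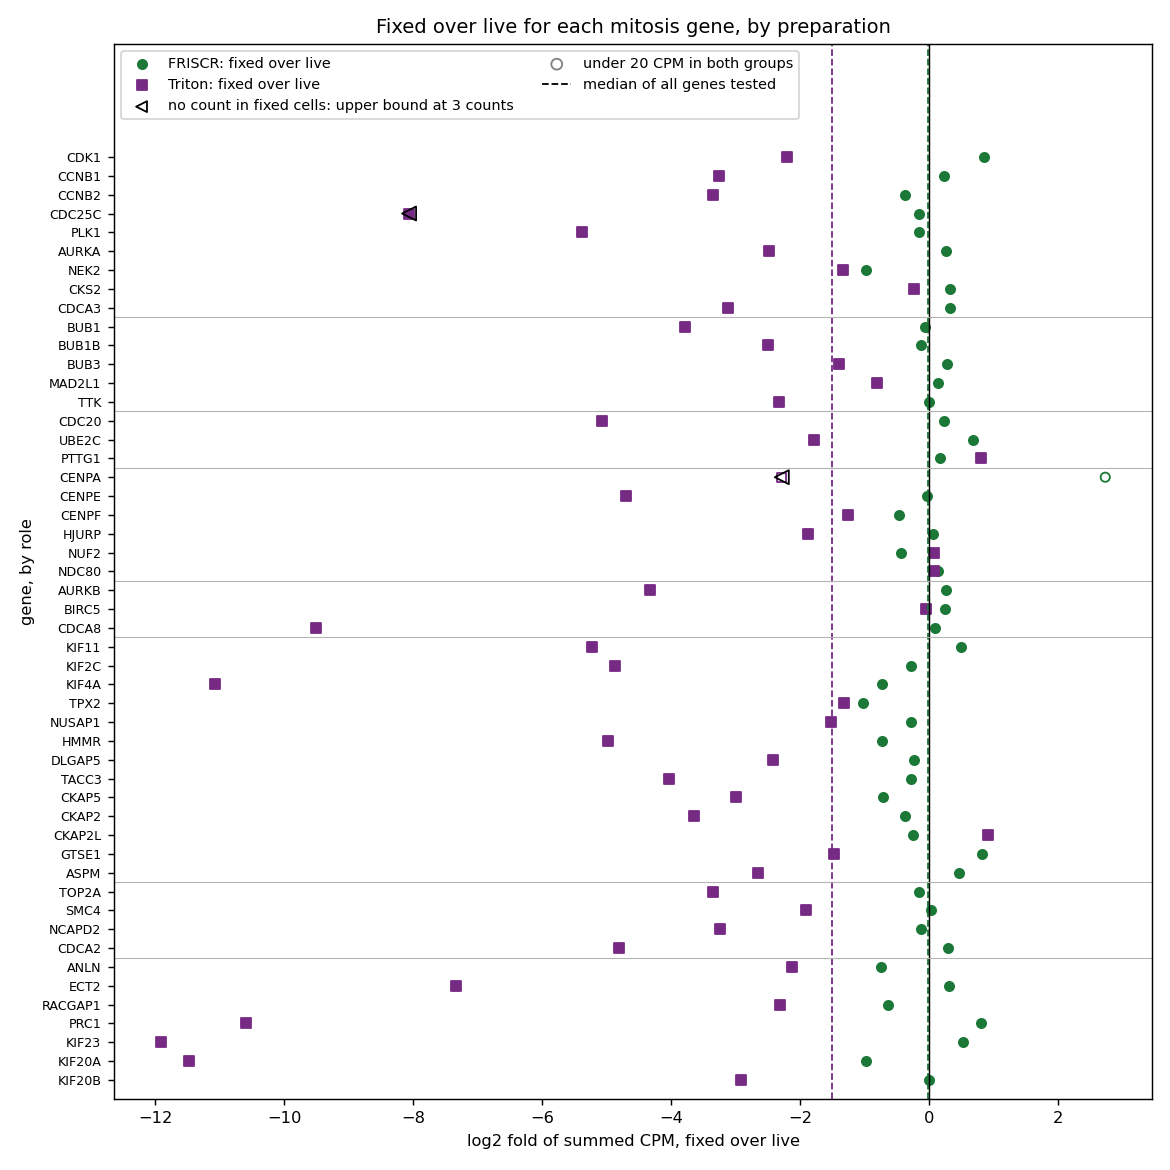
The log2 fold of summed CPM, fixed over live, of each mitosis gene by role, for FRISCR (circles) and Triton (squares), with the median of all genes tested as a dashed line; open symbols were under 20 CPM in both groups, and arrowheads mark bounds at 3 counts. The FRISCR values lie between -1.02 and 0.86 except for CENPA, while most Triton values lie left of -1.50 and KIF23, KIF20A, KIF4A and PRC1 lie beyond -10.

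Detection in single fixed Triton cells was patchy, for the members as for other genes. Over the 6155 genes with at least 20 CPM in both live groups, the median gene had a count in 4 of 7 fixed Triton cells, and so did the median of the 49 members among them. Of these members 10 had a count in every fixed Triton cell (20.4%, against 26.1% of all genes), and 8 stayed under 10 CPM in each of them (16.3% against 18.9%). Of the 24 members at 20 CPM or more in fixed Triton cells, 11 drew over 50% of their counts from 1 cell (59.5% of all genes did), and the median share of the top cell was 49.1% against 56.4%. The members' transcripts were of ordinary length, with a median longest transcript of 3229 bases against 3641 over all genes tested in the Triton contrast. In each of 5 bins of length the members' median lay below that of all genes, from -1.79 (7 members) against -0.35 in the shortest to -2.78 (6 members) against -1.59 in the longest. Across genes, length and fold had a Spearman rho of -0.14 over the members and -0.15 over all genes. By live Triton level the difference was in the upper bins: -6.31 (6 members), -4.04 (15) and -2.33 (23), against -1.82, -1.71 and -1.47, while 3 and 2 members in the lowest bins were at -1.33 and -0.28 against -2.12 and -2.06.

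Taking the Triton fold less the FRISCR fold, which share no cells, gave a median of -2.98 over the 49 members (-3.37 and -3.30 in the library sets) and -1.55 over all 8166 genes with at least 20 CPM in any group. The difference was negative in 46 of 49 members (76.0% of all genes), and 37 members were lower than the all-gene median. In the direct comparison of fixed cells, FRISCR over Triton, the median log2 fold was 3.06 over 48 members against 1.53 over 7272 genes. There were 39 members more than 2-fold higher with FRISCR (59.8% of all genes) and 1 lower (10.6%), 33 were higher in both sets (47.2%), and in 4 every FRISCR cell lay above every Triton cell (4.95%). These values share the fixed Triton cells with the fixation contrast. CCNB1 was 9.88-fold higher (interval 9.37 to 10.4), TOP2A 9.17-fold (8.73 to 9.65), CDC20 32.7-fold (29.0 to 37.0) and BUB3 2.75-fold (2.67 to 2.82). PTTG1 had a log2 fold of -0.46 (0.01 and -0.94 in the sets), NDC80 -0.03, BIRC5 0.27, CENPF 0.28, TPX2 0.59 and ANLN 0.87. KIF23, KIF20A and PRC1, each with 1 count in fixed Triton cells, had ratios of 3785 (interval 679.1 to 149526), 2066 (370.7 to 81643) and 1940 (348.1 to 76664). Leaving out 1 fixed Triton cell moved 36 of the 48 folds by over 1.5 times, a count that was not taken over all genes. The log2 folds were then 4.47 for CCNB1 without replicate 7, 5.97 for CDC20 and 9.22 for KIF20A without replicate 4, 1.18 for CENPF without replicate 2, 4.50 for NDC80 and 1.39 for TPX2 without replicate 1, 10.05 for KIF23 without replicate 6 and 9.10 for PRC1 without replicate 7. The member that was lower with FRISCR, CKAP2L (-1.68), was again set by fixed Triton replicate 2 and was at 7.29 without it.

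Live cells prepared in the 2 ways differed little. The members' median log2 fold, FRISCR over Triton, was -0.17 (-0.28 and -0.11 in the sets), beside 0.10 over 7447 genes (0.06 and 0.14). Of 49 members 1 was more than 2-fold lower (3.14% of all genes) and 0 higher (6.57%). There were 38 lower than the all-gene median, 23 of them in each set, while 3 exceeded it in each set. The shares of all genes below or above their median in both sets were not taken. CDCA2, a chromatin-bound partner of protein phosphatase 1, was the member past 2-fold, at 36.5 against 101.2 CPM (2.77-fold lower, interval 2.65 to 2.90; log2 of -2.01 and -0.91 in the sets). Its live FRISCR cells ran from 0 over 3.12 to 130.1 CPM and its live Triton cells from 19.5 over 126.3 to 174.1 CPM. KIF11 (-0.71; -0.78 and -0.66) and UBE2C (-0.63; -0.70 and -0.59) came next. NUF2 (0.80; 0.91 and 0.61), KIF20A (0.51; 1.20 and -0.82) and CCNB2 (0.39; 0.26 and 0.49) were highest. Of the most abundant members of the roles, CENPF was at -0.51, ANLN at -0.52, CDC20 at -0.27, BUB3 at -0.22, CCNB1 at -0.19 and TPX2 at 0.29. TOP2A and BIRC5 lay within 0.02 of 0. With single cells left out TOP2A ran from -0.48 to 0.23 and BIRC5 from -0.12 to 0.12.

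Cells of 1 group differed widely in these genes. The coefficient of variation (CV) over cells lay above the running median of genes of like level for 46 of 49 members in live FRISCR, 40 of 47 in fixed FRISCR and 43 of 49 in live Triton cells, but for 10 of 24 in fixed Triton cells. On the TPM scale these counts were 40, 31, 34 and 10. TOP2A was farthest above it in the first 3 groups, with CVs of 1.22, 0.721 and 0.693. In live FRISCR cells it ran from 35.2 over 249.4 to 2690 CPM. Its value in fixed Triton cells, a CV of 0.634, was the farthest below among the members there.

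The same cells tended to be high for many members. The median Spearman correlation over pairs of members was 0.33 in live FRISCR (49 members, n = 15 cells), 0.21 in fixed FRISCR (47 members, n = 12), 0.31 in live Triton (49 members, n = 11) and 0.04 in fixed Triton cells (24 members, n = 7), beside 0 to 0.01 over pairs of all genes at that level. These are descriptions: values of a cell share its library, its depth and its total. Between library sets, the SD of this median correlation over pairs of members was 0.273 in live Triton cells. It was 0.019 in live FRISCR, 0.081 in fixed FRISCR and 0 in fixed Triton cells. The live Triton median of 0.31 thus differed most between library sets. PLK1 had a rho of 0.90, 0.94 and 0.90 with the sum of the other members in live FRISCR, fixed FRISCR and live Triton cells, the highest of the members in both FRISCR groups. CCNB1 gave 0.88, 0.80 and 1.00 and was highest in live Triton cells. CKS2 gave 0.81, 0.90 and 0.78, AURKA (Aurora A) 0.72, 0.80 and 0.83, and CDC20 0.57, 0.94 and 0.79. SMC4, a condensin subunit, stayed low at 0.22, 0.24 and 0.21, and KIF4A at 0.20, 0.39 and 0.11. CCNB2, the second B-type cyclin, gave 0.10, 0.12 and 0.41. MAD2L1 differed between groups, at 0.51, 0.48 and -0.12. In live FRISCR cells 29 of 49 members were above 0.5 and 0 were negative. In fixed Triton cells 3 of 24 were above 0.5 and 8 were negative. These counts were not taken over all genes. Among pairs of members 24.1% were above 0.5 in live FRISCR cells, against 3.25% of pairs of all genes. In fixed Triton cells the shares were 12.7% and 13.3%.

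**Figure D4:**
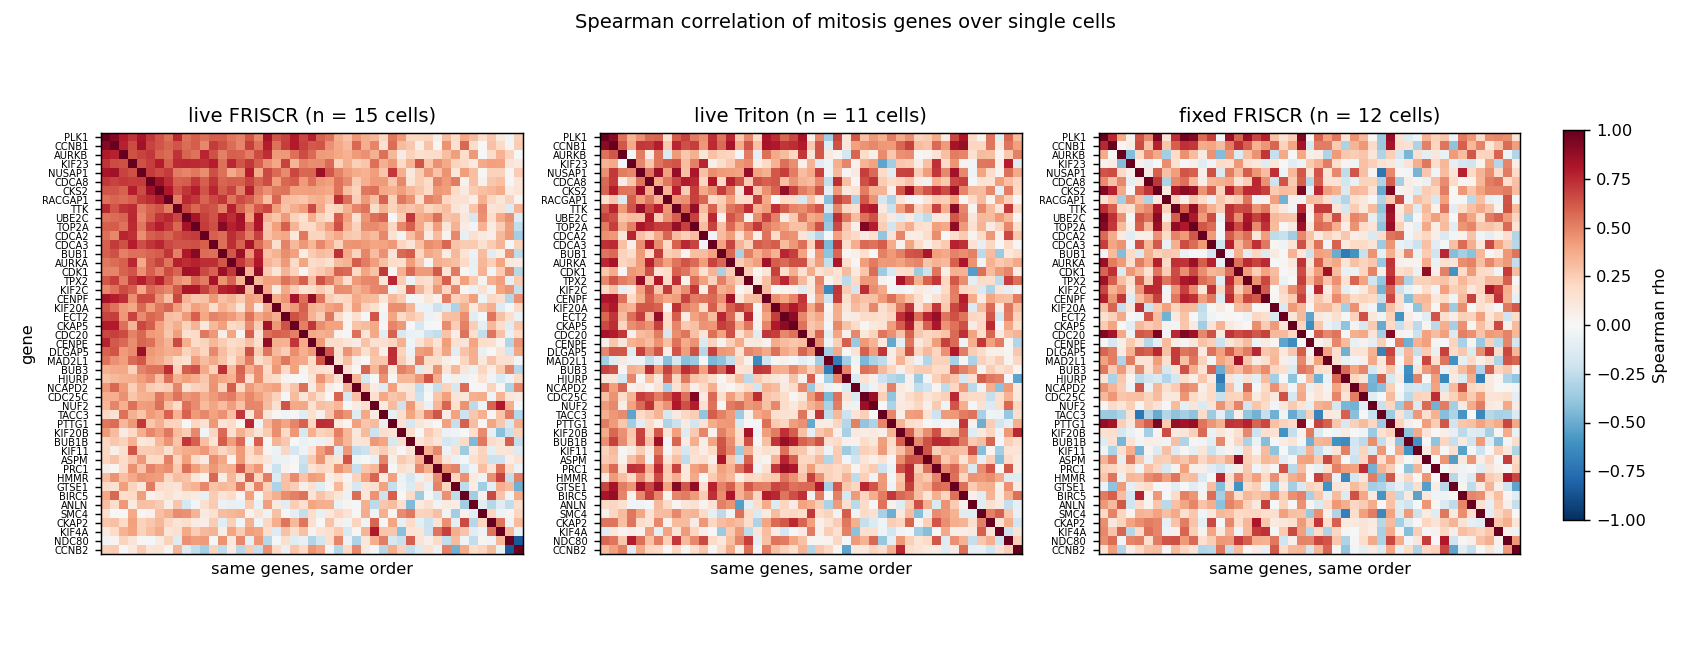
Spearman correlation between mitosis genes over the cells of a group, for the members with at least 20 CPM in all 3 groups shown, in the order of their rho with the sum of the other members in live FRISCR cells. The block of red at the upper left (PLK1, CCNB1 and others) is seen in live FRISCR cells, by whose values the genes are ordered, and more loosely in the other 2 groups.

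Among 6106 genes outside the list with at least 20 CPM in both live groups, the median rho with the members' sum was 0.03, taken as the median of both live groups. For 82 other mitosis genes it was 0.18, and for 57 DNA replication genes -0.16. KPNA2, a nuclear import receptor, was highest at 0.86 (0.87 in live FRISCR, 0.72 in fixed FRISCR and 0.85 in live Triton cells). CALM2 (calmodulin) followed at 0.76, then TSC1, MORF4L2, C15orf23, CDKN3, ZNF512, LEPREL4, G2E3 and BCKDHB, from 0.75 to 0.67. In fixed FRISCR cells, which took no part in this choice, MORF4L2 gave 0.66 and C15orf23 0.74, but TSC1 gave -0.59 and CDKN3, a CDK phosphatase, -0.15. There G2E3 gave 0.57, CALM2 0.47, ZNF512 0.45, LEPREL4 0.22 and BCKDHB 0.09. KPNA2 and G2E3 belong to the list of other mitosis genes. The share of counts in the members also went with that in the other mitosis genes, with a rho of 0.81, 0.71 and 0.89 in live FRISCR, fixed FRISCR and live Triton cells.

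DNA replication genes ran the other way in FRISCR cells. The rho of the members' share with the share of 61 replication genes was -0.73 in live FRISCR cells (-0.81 and -0.71 in the library sets, n = 8 and 7, and -0.64 without the 2 cells farthest from the median share). In fixed FRISCR cells it was -0.76 (-0.77 in each set, n = 6 and 6, and -0.73 without the 2 farthest). The live FRISCR cell with the highest share, replicate 1, had 1.84% of its counts in the members and 0.802% in replication genes. In live Triton cells the rho was -0.23, with -0.40 and -0.43 in the sets (n = 5 and 6), and leaving out single cells gave -0.41 to 0.03. In fixed Triton cells it was 0.54 over 7 cells, from 0.26 to 0.89 with single cells left out. Both shares are parts of the same total, and the members' share had a rho of 0.06, -0.20, -0.34 and 0.04 with total counts in the 4 groups.

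**Figure D5:**
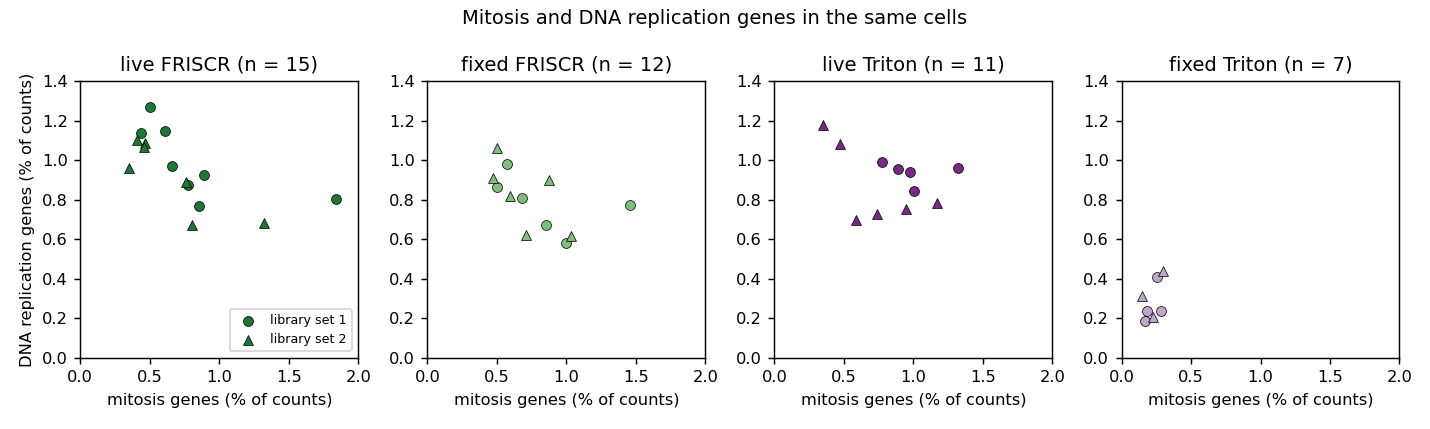
Each point is 1 cell: the share of counts in the 50 mitosis genes (x, %) against that in 61 DNA replication genes (y, %), by group, with library sets as circles and triangles. In the FRISCR panels cells high for mitosis genes sit low for replication genes; fixed Triton cells lie in the lower left, at most at 0.299% and 0.438%.

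Of 98 other mitosis genes 86 were at 20 CPM or more in either Triton group, with a median log2 fold, fixed over live, of -2.40, beside -1.50 over all genes. Of the 86, 61 (70.9%) were more than 2-fold lower and 4 (4.65%) higher, against 58.5% and 12.4% of all genes. For 58 of 61 DNA replication genes the median was -2.12, with 39 (67.2%) lower and 2 (3.45%) higher. With FRISCR the medians were 0.04 and -0.24, beside -0.02 over all genes. No test compared these lists.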

How the data were processed

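The labels' protocols describe Smart-Seq2 cDNA and Nextera XT libraries of single cells. The authors deposited estimated counts, one column per cell, in a first table. TPM values were deposited by the authors in a second one. Both rest on GRCh37 (hg19), as the submitters' processing notes say, and the aligner and quantifier are not given in the sources. Estimated counts, as deposited, were not whole in 40.3% of nonzero cells of the table and were rounded. Every cell was kept, without a doublet caller.

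A group's summed count of a gene over its summed total gave the CPM, with 3 counts in place of a sum of 0. Ratios have exact 95% binomial intervals, which cover counting error only. Genes at 20 CPM or more in either group were compared, and a difference of 2-fold was counted. Running medians of CV spanned 201 genes. GENCODE transcript lengths, joined by symbol, covered at least 98.1% of the genes compared. Alternatives used the TMM factors of edgeR 4.0.16, the median-of-ratios factors of DESeq2 1.42.0 (both in R 4.3.3), totals without abundant rows, mean per-cell CPM, mean TPM with 0.1 added, other filters, single library sets and leaving out each cell. Full values went to the most abundant member of each of the 8 roles and to the 3 lowest and 3 highest members of each contrast, and other members are named with fewer values. Genes named outside the list are the 10 with the highest correlation. The members and all lists were chosen with earlier results of these data known. The scripts were tested on simulated data.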

Additional observations from a re-analysis of the deposited data

Results flagged for a closer look

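In the 7 fixed Triton cells, 9 of 28 tested sets of values held a cell far from the other 6, by the gap to its neighbour over the whole range (critical value 0.568). Chance passes this value in about 1 in 20 sets of normally distributed values, which the CPM of single cells need not be. Of all 3977 genes at 20 CPM or more in these cells 46.8% passed it, against 37.5% of the members at that level (9 of 24), so a lone high cell was no more frequent among the members than among all genes. In all 9 it was the highest cell. The ratio was 0.973 for CDK1 (152.6 CPM in replicate 7, next 4.13) and 0.715 for CCNB1 (202.8 CPM in replicate 7, next 58.1). Among checkpoint genes it was 0.952 for BUB1B (218.8 CPM in replicate 6, next 10.5) and 0.58 for TTK (121 CPM in replicate 5, next 50.8). The centromere and kinetochore genes HJURP, NUF2 and NDC80 gave 0.814 (179.4 CPM in replicate 4, next 33.6), 0.999 (161.2 CPM in replicate 2, next 0.232) and 0.963 (506.6 CPM in replicate 1, next 18.7). The spindle genes TPX2 and CKAP2L gave 0.584 (297.4 CPM in replicate 1, next 124) and 1 (376.2 CPM in replicate 2, next 0). These high cells were spread over replicates 1, 2, 4, 5, 6 and 7, and the other groups had too many cells to be examined this way.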

How the results depend on the processing

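No paired analysis was possible because the labels give no replicate numbers that cells share across groups. Depth limits the values near 1 to 3 counts, and 7 fixed Triton cells limit every fold against them. The members' median less that of all genes was -1.42 in the Triton fixation contrast, -0.92 with no filter and -1.58 to -1.26 with single cells left out. For FRISCR over Triton in fixed cells it was 1.53, 1.10 with no filter, 0.86 in library set 2 and 1.31 to 1.60 with cells left out. In live cells it was -0.28, -0.25 with mean CPM, -0.26 with mean TPM, -0.32 and -0.30 in the library sets and -0.42 to -0.17 with cells left out. In the FRISCR fixation contrast it was 0.02 and ran from -0.062 to 0.17 with cells left out. The difference of both fixation effects, less that of all genes, was -1.43, -0.83 in library set 2 and -1.54 to -1.17 with cells left out. Members more than 2-fold lower with FRISCR fixation numbered 1, but 0 with median-of-ratios, 3 with TPM, 2 and 3 in the library sets and 0 to 4 with cells left out, and those higher numbered 0, but 1 with no filter, 2 in library set 1 and 0 to 1 with cells left out. With Triton fixation 0 were higher, but 4 with TMM, 5 with median-of-ratios and 2 without abundant rows (26.3%, 28.8% and 20.6% of all genes). There was 1 in library set 2 and 0 to 1 with cells left out, which left 41 to 45 lower. In live cells 1 was lower, but 3 in library set 1 and 0 in set 2, and 0 were higher, but 1 with no filter, 2 in library set 1 and 0 to 1 with cells left out. In fixed cells 1 was lower with FRISCR, but 3 with TMM, 3 with median-of-ratios, 2 without abundant rows and 0 to 1 with cells left out. Those higher numbered 39, but 30 with TMM, 28 with median-of-ratios and 34 without abundant rows (41.0%, 38.2% and 46.7% of all genes). With cells left out 38 to 41 were higher. CKAP2L there reversed from -1.68 to 6.76 in library set 2 and ran from -2.59 to 7.29 with cells left out, the latter without fixed Triton replicate 2. The fixed Triton share was 0.371% without abundant rows, and members detected fell from 25 to 18 with a minimum of 10 counts. The median correlation in live FRISCR cells was 0.28 with Pearson and 0.38 within library sets. In fixed Triton cells it was 0.018 with Pearson, 0.039 at 50 CPM and 0 within library sets. The median correlation in live Triton cells had an SD of 0.273 between library sets. Other causes of these moves were not tested. With single cells left out, median shares were 0.636% to 0.713% in live FRISCR, 0.681% to 0.712% in fixed FRISCR, 0.830% to 0.916% in live Triton and 0.203% to 0.239% in fixed Triton cells, and median numbers detected 46 to 47, 45 to 46, 48 to 48.5 and 24 to 26.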
